A study of Mus musculus with 9 samples.

Results

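The subject is a set of 10 textbook target genes of p53 in the mouse kidney, measured 24 h after reperfusion: Cdkn1a, Mdm2, Trp53inp1, Ccng1, Bax, Bbc3, Phlda3, Sesn1, Zmat3 and Eda2r. They were chosen by symbol as known p53 targets and are 10 of the 29678 genes in the count tables. All 10 passed the filter on low counts, as did Trp53, the gene of p53 itself. RNA-seq libraries came from poly(A) RNA of kidney tissue in 3 groups: BHBNa_bIRI (sodium beta-hydroxybutyrate, the salt of a ketone body, given before ischemia-reperfusion injury of both kidneys), bIRI (the same injury alone) and Sham (a sham operation). The labels give no strain, genotype, sex, age, dose or number of animals. They list 3 libraries per group, but the deposited values of bIRI replicate 2 equalled the rounded-down mean of bIRI replicates 1 and 3 in all 29678 genes, so this library was left out and 8 libraries were compared.

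The transcription factor p53 is held at low protein levels in resting cells by the ubiquitin ligase that Mdm2 encodes. Damage to DNA, low nucleotide supply, oxidants and other stresses stabilise the protein, which then binds paired copies of a short motif in DNA and raises transcription of genes for cell cycle arrest, apoptosis, metabolism and its own inhibition. In injured kidney tubules p53 and p21, the product of Cdkn1a, have long been studied as part of the response to ischemia and toxins. Several of these genes are also switched on by other factors, so that their messenger RNA is not a measure of p53 activity by itself.

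The 8 libraries held 33477985 to 45909063 counts, and the floor of 3 counts corresponded to 0.0646 to 0.0815 counts-per-million (CPM) values, taken on TMM-scaled library sizes throughout. Such floors cover counting error only. No label says that libraries came from separate animals, so p-values measure only the spread between these libraries. All 10 kidney markers, from proximal tubule to podocyte, were above 0 in every library. Both bIRI libraries stood apart from each other: bIRI replicate 3 held 0.573% of its counts in long intergenic RNAs, against 0.140% to 0.179% in the other libraries. Fold changes also followed transcript length across the genome, most in BHBNa_bIRI against bIRI, where Spearman's rho was -0.52 over 12940 genes (across genes, which are not independent replicates). The mitochondrial share of counts was 24.0% to 30.3% in BHBNa_bIRI, 15.9% in both bIRI libraries and 11.2% to 13.3% in Sham, and its part in the results was not tested.

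The paired motifs that p53 binds are shown first, since they are the feature by which such targets are known. RefSeq promoter windows on GRCm38.p6, from 250 bases before to 50 bases after an annotated start, were found for 8 of the 10 genes, in 12 windows of 300 bases. They were searched for 2 copies of the degenerate 10-base p53 motif, with 0 to 3 bases between the copies, the C and G of each core intact and at most 2 mismatches in all. The pair reads alike on both strands, so that 1 search covers both. A match was present in 4 of the 12 windows, one each for Cdkn1a, Ccng1, Bax and Sesn1, against 1.35% of the 32851 windows of all genes. The genes were picked as known p53 targets, so this share is a description and no independent evidence. The stretches are printed 5′ to 3′ on the strand of the gene, with both copies in capitals and 20 bases of flank on each side.
Cdkn1a: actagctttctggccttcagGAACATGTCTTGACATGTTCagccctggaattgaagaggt
Ccng1: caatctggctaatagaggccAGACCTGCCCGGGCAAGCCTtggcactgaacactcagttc
Bax: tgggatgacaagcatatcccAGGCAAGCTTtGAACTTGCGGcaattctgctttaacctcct
Sesn1: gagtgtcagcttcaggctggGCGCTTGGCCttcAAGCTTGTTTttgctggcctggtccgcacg

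The pair near Cdkn1a lay at chr17:29090928-29090947 on the plus strand, 51 to 32 bases before the upstream of its annotated starts, and had 1 mismatch and no base between the copies. The pair near Ccng1, at chr11:40755462-40755481 on the minus strand, also had 1 mismatch. Those near Bax (chr7:45467079-45467099, minus strand) and Sesn1 (chr10:41887253-41887275, plus strand, before the downstream of its starts) had 2 mismatches each. The other windows of Cdkn1a and Sesn1 and those of Mdm2, Bbc3, Phlda3 and Eda2r held no such pair, which says only that these letters are not in these windows. Genes with a pair in these windows did not move in one way, as the values below show: Cdkn1a rose in both injured groups, Bax rose in BHBNa_bIRI against Sham, Sesn1 fell in that comparison, and Ccng1 was not called in any of the 3 comparisons.

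Of the 10 genes, 4 rose and 0 fell with injury alone. In bIRI against Sham, Cdkn1a, Eda2r, Trp53inp1 and Mdm2 rose by edgeR's quasi-likelihood test at an adjusted p under 0.05, while Phlda3, Bax, Zmat3, Ccng1, Bbc3 and Sesn1 were not called. Of the 17967 genes tested, 35.1% were called in either direction and 18.9% were higher. The members' median log2 fold change was 0.53, against 0.08 over all genes tested. In bulk tissue, a change in the number of cells of a type and a change in RNA per cell cannot be told apart.

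**Figure D1:**
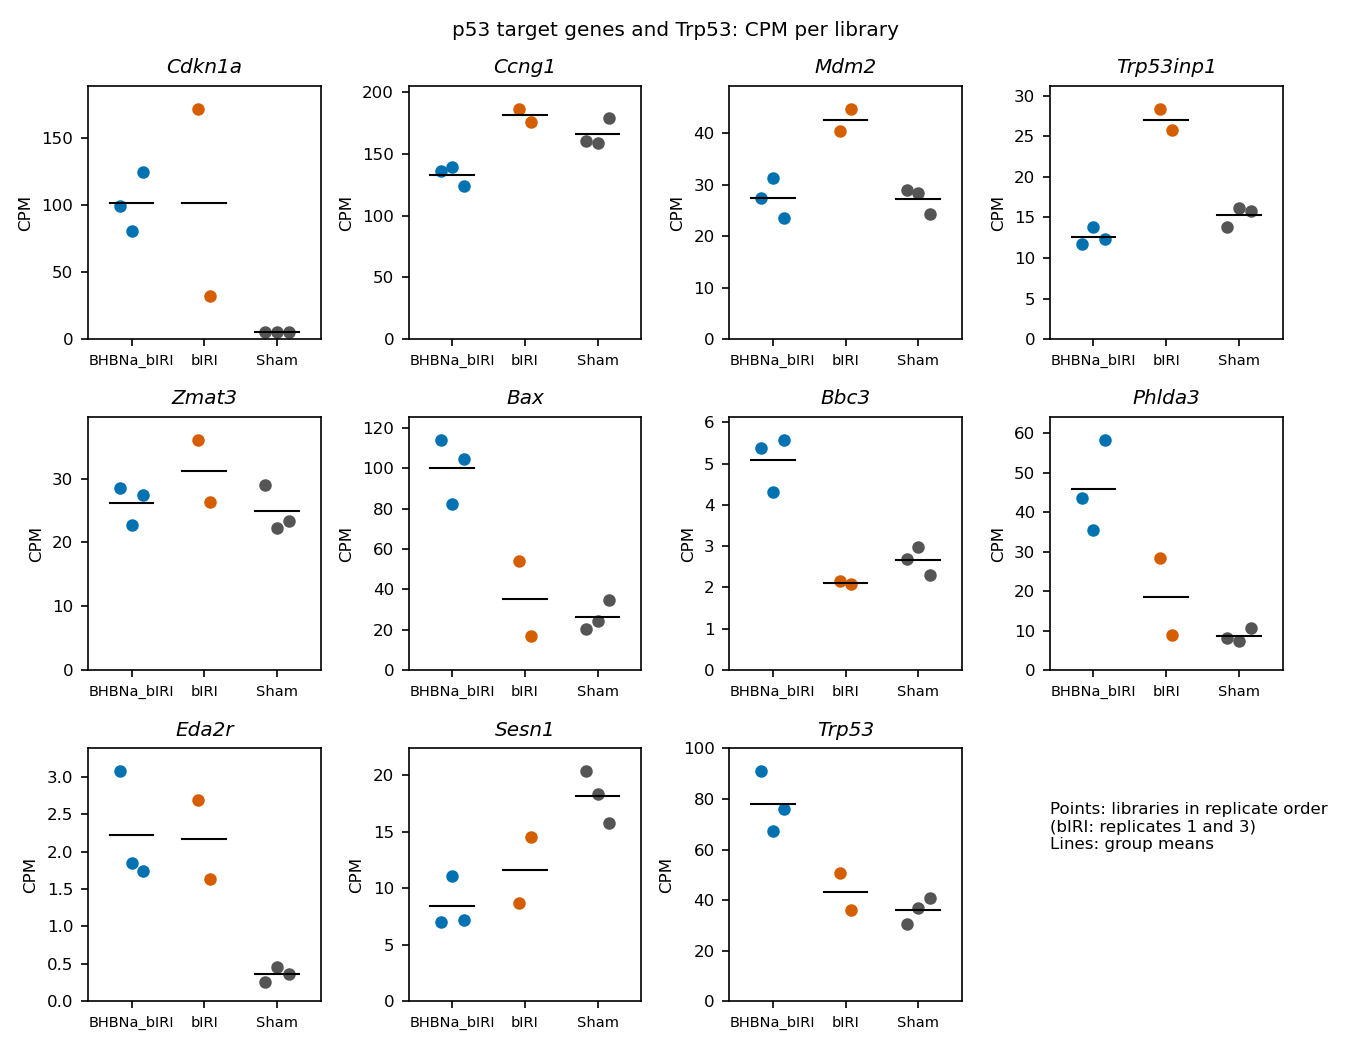
Level of each p53 target and of Trp53 in CPM (vertical axes from 0) in the 8 libraries, by group; points are libraries and lines are group means. Cdkn1a was at 171.9 and 32.0 CPM in bIRI and near 5 CPM in Sham, while Bax, Bbc3 and Phlda3 were highest in BHBNa_bIRI and Mdm2 and Trp53inp1 highest in bIRI.

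Cdkn1a encodes p21, an inhibitor of cyclin-dependent kinases that halts the cell cycle (ENSMUSG00000023067, GRCm38 chromosome 17, 29090976 to 29100727, plus strand). It stood at 171.9 and 32.0 CPM in bIRI replicates 1 and 3, against 5.09, 5.11 and 4.96 CPM in Sham replicates 1, 2 and 3. Both bIRI libraries lay above all Sham libraries, but far from each other. The log2 fold change was 4.33 (SE 0.56, edgeR adjusted p 0.000544), a 20.2-fold rise. It was 2.59 without bIRI replicate 1 and 5.09 without bIRI replicate 3, and the call held in all 20 alternatives. A predicted transcript on the other strand, AC167363.2, shares 273 exon bases with Cdkn1a, and held 0 to 5 counts per library, against 192 to 7856 for Cdkn1a.

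Eda2r encodes a receptor of the tumour necrosis factor family that binds an ectodysplasin isoform (chromosome X, 97333840 to 97377216, minus strand). It was scarce, with 123 and 75 counts in bIRI replicates 1 and 3, against 10, 20 and 14 counts in Sham. In CPM these were 2.69 and 1.64 in bIRI, against 0.248, 0.457 and 0.362 in Sham, with no overlap. The log2 fold change was 2.59 (SE 0.45, edgeR adjusted p 0.00255), and 20 of 20 alternatives kept the call.

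Mdm2, whose product marks p53 for degradation, and Trp53inp1, which encodes a stress protein of apoptosis and autophagy, rose less. Mdm2 was at 40.4 and 44.7 CPM in bIRI, against 28.9, 28.4 and 24.3 CPM in Sham. Its log2 fold change was 0.64 (SE 0.18, edgeR adjusted p 0.0198), and the adjusted p was 0.0655 without Sham replicate 2 and 0.0692 without Sham replicate 3. Trp53inp1 was at 28.4 and 25.8 CPM in bIRI, against 13.8, 16.2 and 15.8 CPM in Sham, a log2 fold change of 0.83 (SE 0.17, edgeR adjusted p 0.00595). In both genes the bIRI libraries agreed closely and lay above every Sham library. With smooth trends by length and GC content of transcripts removed from each library, Trp53inp1 was at 0.11 (edgeR adjusted p 0.694) and Mdm2 at 0.63 (adjusted p 0.00638). The longest annotated coding transcript of Trp53inp1 has 5404 bases and 38.8% GC, that of Mdm2 3145 bases and 46.2%, where the median over genes tested was 2760.5 bases.

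Bax and Bbc3, pro-apoptotic genes of the BCL2 family, were not called in bIRI against Sham. Bax encodes a pore-forming protein of the outer mitochondrial membrane, and Bbc3 encodes PUMA, a BH3-only protein that frees such pore formers. Bax had 53.9 CPM in the first bIRI library (replicate 1) and 16.8 CPM in the other (replicate 3), against 20.3, 24.2 and 34.9 CPM in Sham, so that the bIRI libraries lay on both sides of Sham. Its log2 fold change was 0.42 (95% interval -0.51 to 1.35), with 1.03 (edgeR adjusted p 0.0112) without bIRI replicate 3 and -0.72 without bIRI replicate 1. Bax shares 192 exon bases with the gene Gm45808 on the same strand, which was not analysed here. Bbc3 was at 2.14 and 2.09 CPM in bIRI, just under the 2.68, 2.99 and 2.30 CPM of Sham (log2 fold change -0.33, 95% interval -0.96 to 0.31, edgeR adjusted p 0.4).

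Phlda3 encodes a small pleckstrin homology protein that restrains the kinase Akt. Its bIRI libraries had 28.3 CPM (replicate 1) and 8.79 CPM (replicate 3), against 8.08, 7.31 and 10.7 CPM in Sham. As with Bax, bIRI replicate 1 lay above every Sham library and bIRI replicate 3 did not. The log2 fold change was 1.09 (SE 0.42, edgeR adjusted p 0.0677), with an adjusted p of 0.0398 by DESeq2. It was 1.19 (edgeR adjusted p 0.0168) with length and GC trends taken out, 1.70 (edgeR adjusted p 0.00049) without bIRI replicate 3 and -0.05 without bIRI replicate 1. Sesn1, whose product sestrin 1 lowers mTORC1 signalling and oxidant stress, was at 8.67 and 14.6 CPM in bIRI, below the 20.4, 18.4 and 15.8 CPM of Sham (log2 fold change -0.65, SE 0.29, edgeR adjusted p 0.116). Without bIRI replicate 3 it was at -1.07 with an edgeR adjusted p of 0.0169.

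Ccng1, which encodes cyclin G1, a partner of a phosphatase that acts on Mdm2, had 186 and 176 CPM in bIRI, against 161, 158 and 179 CPM in Sham. Zmat3, which encodes an RNA-binding zinc finger protein, had 36.1 and 26.3 CPM in bIRI, against 29.0, 22.2 and 23.3 CPM in Sham. Groups overlapped in both genes, and their log2 fold changes were 0.13 (95% interval -0.24 to 0.50) and 0.33 (95% interval -0.13 to 0.79). Over the 10 genes, bIRI and Sham libraries did not overlap in 4 higher and 2 lower genes, where 28.7% and 27.2% of all genes tested did so (55.9% in either direction). Trp53 itself was at 50.9 and 35.9 CPM in bIRI, against 30.4, 36.7 and 40.9 CPM in Sham (log2 fold change 0.27, 95% interval -0.22 to 0.76), and at 0.56 (edgeR adjusted p 0.039) with the trends taken out.

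With pretreatment, members differed from injury alone in both directions. In BHBNa_bIRI against bIRI, Bbc3 rose and Mdm2 and Trp53inp1 fell by edgeR, while Bax, Phlda3, Ccng1, Sesn1, Zmat3, Eda2r and Cdkn1a were not called. Trp53 rose. The share of genes called in either direction was 13.5% of all genes tested, with 4.88% higher and 8.65% lower, and the members' median log2 fold change was -0.13, against -0.05 over all genes. Of 20 other fits, Trp53inp1 was called in 11, Bbc3 in 10 and Mdm2 in 5, while the direction of each was kept on leaving out any 1 library (log2 fold changes of -1.17 to -0.97, 1.19 to 1.37 and -0.74 to -0.54). Without bIRI replicate 1, edgeR called 7 members and 42.8% of all genes. Without bIRI replicate 3, it called 1 member and 4.27% of all genes. When BHBNa_bIRI replicate 1 or 3, or Sham replicate 1 or 2, was left out, edgeR called 0 members and at most 1 gene in all, with 4 to 6 members and 4509 to 5566 genes at an unadjusted p under 0.05. With only the compared groups fitted, the counts were 0 members and 1 gene, with 5 and 4495 at an unadjusted p under 0.05. With length and GC trends taken out, edgeR called 0 of the 10 members, with 2 at an unadjusted p under 0.05, and 6 of all genes. DESeq2, run without that correction, called 6, with Bax, Phlda3 and Ccng1 besides the 3 above. Where a bIRI library is left out, the other is taken to vary like the libraries of the other groups.

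**Figure D2:**
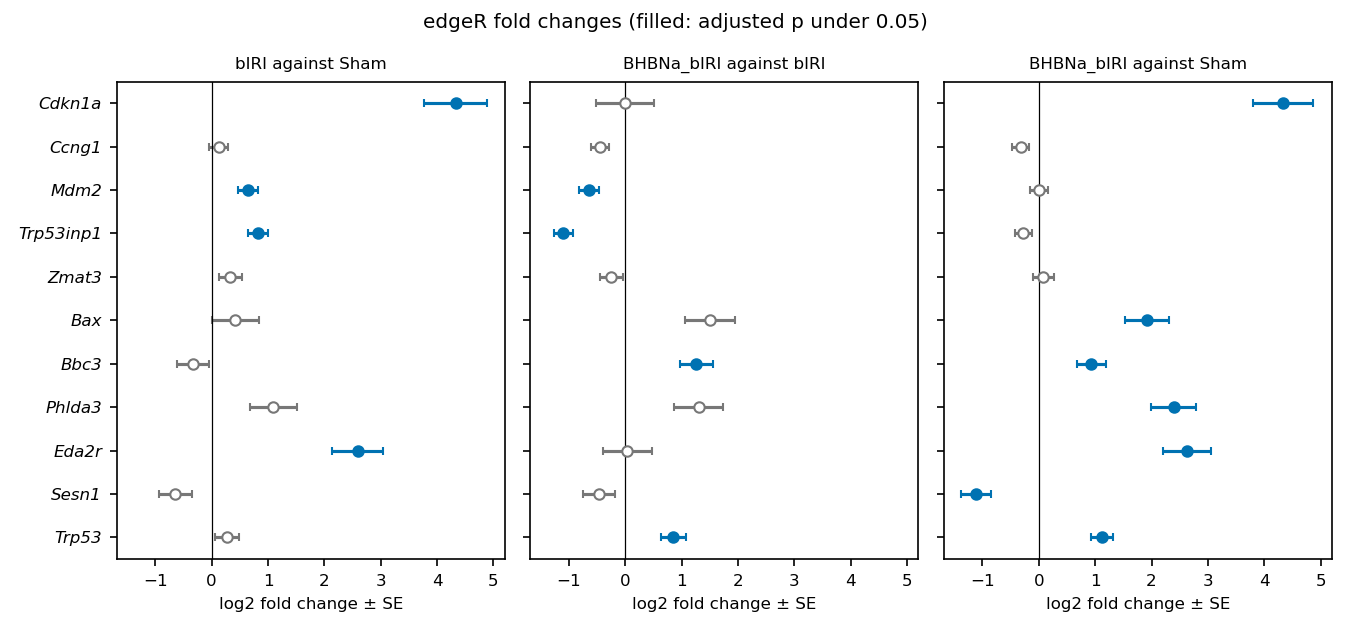
Log2 fold change with its SE (horizontal axis) of each p53 target and of Trp53 in the 3 comparisons, with filled points for an edgeR adjusted p under 0.05. Cdkn1a was above 4 in both injured groups against Sham and at 0.00 between the injured groups.

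Bbc3 was at 5.38, 4.31 and 5.57 CPM in BHBNa_bIRI replicates 1, 2 and 3, against 2.14 and 2.09 CPM in bIRI. Every pretreated library was above both bIRI libraries and above all of Sham. The log2 fold change was 1.26 (SE 0.29, edgeR adjusted p 0.0316), and it was 0.60 (adjusted p 0.222) with length and GC trends taken out. Bax was at 114, 82.2 and 104.6 CPM in BHBNa_bIRI, above the 53.9 and 16.8 CPM of bIRI, with a log2 fold change of 1.51 (SE 0.44) and an edgeR adjusted p of 0.0504. It was 2.63 without bIRI replicate 1, 0.89 without bIRI replicate 3 and 0.71 (adjusted p 0.175) with the trends taken out. Phlda3 was at 43.5, 35.5 and 58.2 CPM in BHBNa_bIRI, above the 28.3 and 8.79 CPM of bIRI (log2 fold change 1.30, SE 0.44, edgeR adjusted p 0.0721). It was 2.43 without bIRI replicate 1, 0.69 without bIRI replicate 3 and 0.64 with the trends taken out.

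Mdm2 was at 27.3, 31.3 and 23.5 CPM in BHBNa_bIRI, below the 40.4 and 44.7 CPM of bIRI and across the range of Sham. Its log2 fold change was -0.64 (SE 0.18, edgeR adjusted p 0.0445), and -0.35 (adjusted p 0.145) with the trends taken out. Trp53inp1 was at 11.7, 13.8 and 12.4 CPM in BHBNa_bIRI, below the 28.4 and 25.8 CPM of bIRI, with a log2 fold change of -1.10 (SE 0.17, edgeR adjusted p 0.0275), and -0.37 (adjusted p 0.268) with the trends taken out. Ccng1 was at 136, 139 and 124 CPM in BHBNa_bIRI, below both bIRI libraries and all of Sham (log2 fold change against bIRI -0.44, SE 0.16, edgeR adjusted p 0.0915, and 0.04 with the trends taken out). In these 3 genes both bIRI libraries agreed and every pretreated library was lower.

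The members that were higher in BHBNa_bIRI than in bIRI with no overlap had short, GC-rich transcripts, and those that were lower had longer ones with less GC. Bax, Phlda3 and Bbc3 have 1100, 1435 and 1814 bases with 63.5%, 62.6% and 65.2% GC. Mdm2, Ccng1 and Trp53inp1 have 3145, 3512 and 5404 bases with 46.2%, 40.8% and 38.8% GC. Over all genes tested, the median log2 fold change was 0.66 in the shortest of 10 bins by transcript length and -0.60 in the longest. What sets this genome-wide trend was not tested. Of the 10 members, 3 did not overlap upward and 3 downward, where 22.2% and 23.8% of all genes did (46.0% in either direction).

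**Figure D3:**
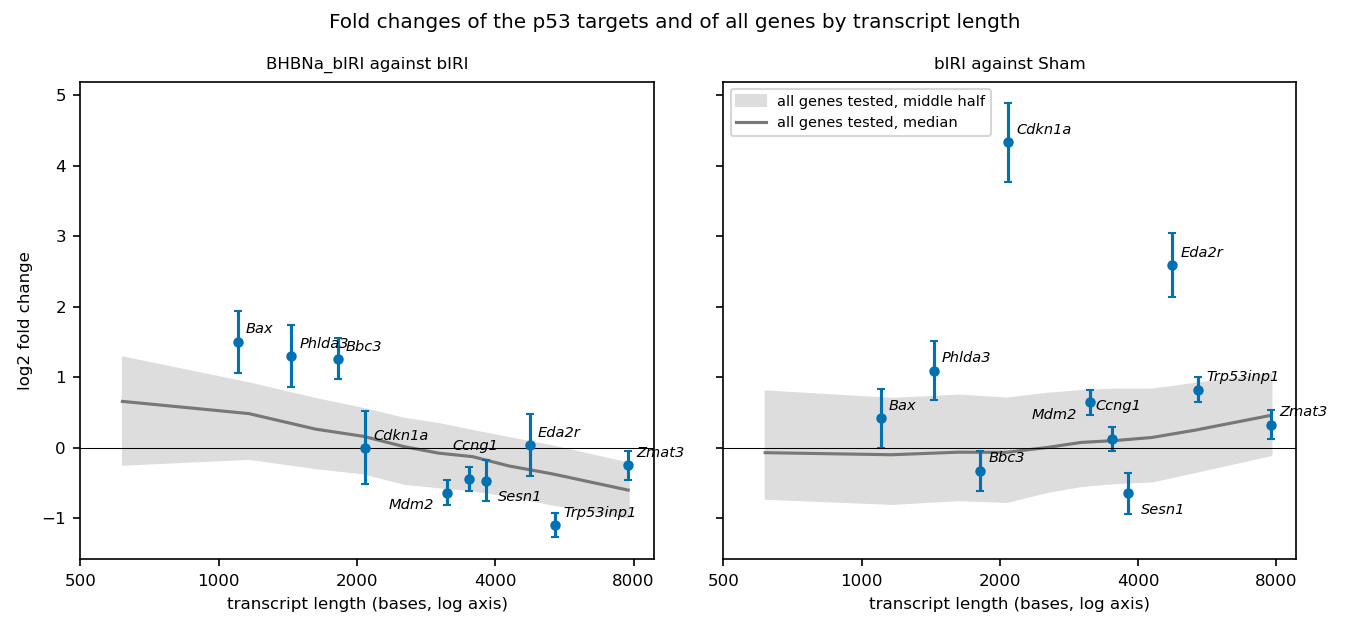
Log2 fold change with SE of the 10 p53 targets against the length of the longest coding transcript (log axis), over the median and interquartile range of all genes in 10 bins by length. In BHBNa_bIRI against bIRI the all-gene median runs downward from 0.66 to -0.60 with length, Bax, Phlda3 and Bbc3 lie above the interquartile range and Mdm2 and Trp53inp1 below it.

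Cdkn1a was at 99.7, 80.9 and 125.0 CPM in BHBNa_bIRI, between the 171.9 and 32.0 CPM of the bIRI libraries. Its log2 fold change was 0.00 (SE 0.52), and the 95% interval of -1.16 to 1.16 leaves room for a change of more than 2 times in either direction. It was 1.72 (edgeR adjusted p 0.000295) without bIRI replicate 1 and -0.76 without bIRI replicate 3, so that the direction changed with the bIRI library left in. Eda2r was at 3.08, 1.85 and 1.74 CPM in BHBNa_bIRI, against 2.69 and 1.64 CPM in bIRI (log2 fold change 0.04, 95% interval -0.93 to 1.01). Zmat3 was at 28.5, 22.7 and 27.4 CPM in BHBNa_bIRI (-0.25, 95% interval -0.71 to 0.21). Sesn1 was at 6.97, 11.1 and 7.15 CPM in BHBNa_bIRI (-0.47, 95% interval -1.11 to 0.18), with -0.73 (edgeR adjusted p 0.0496) without bIRI replicate 1 and -0.046 without bIRI replicate 3.

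Trp53 was at 91.1, 67.4 and 76.0 CPM in BHBNa_bIRI, above the 50.9 and 35.9 CPM of bIRI. The log2 fold change was 0.85 (SE 0.22, edgeR adjusted p 0.0393), and 0.55 (adjusted p 0.11) with the trends taken out. Leaving out any library other than bIRI replicate 1 put its adjusted p above 0.05.

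**Figure D4:**
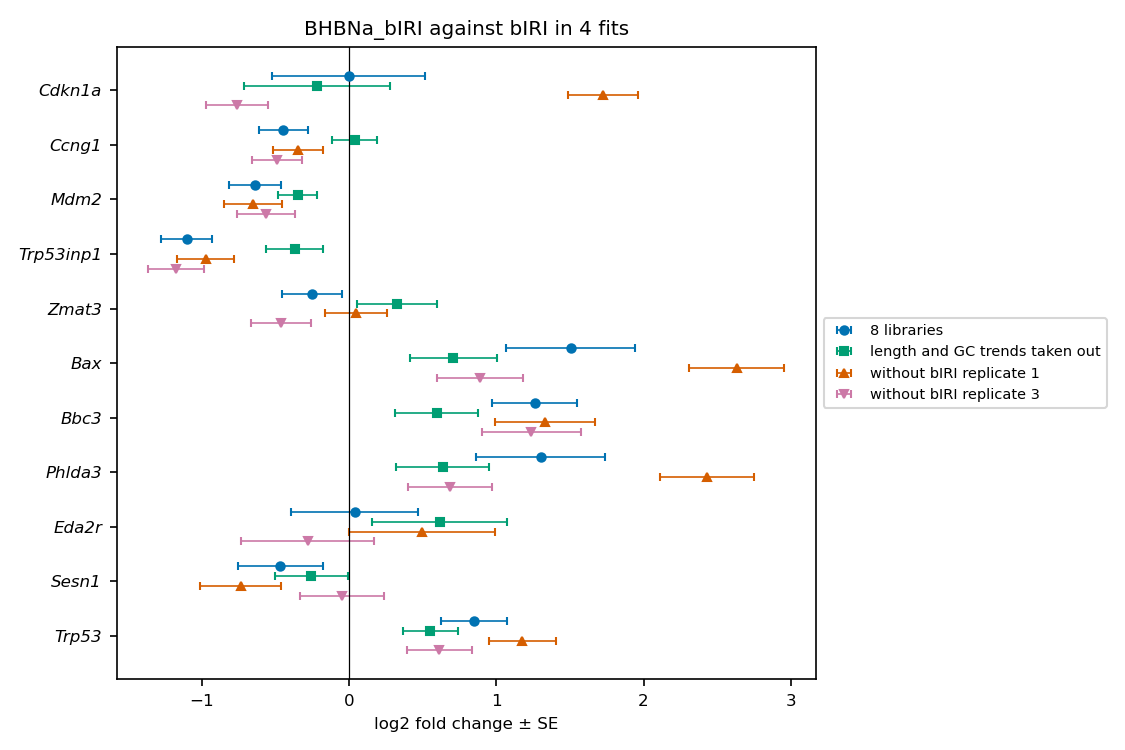
Log2 fold change with SE in BHBNa_bIRI against bIRI for the 10 p53 targets and Trp53 in 4 edgeR fits: the 8 libraries, length and GC trends taken out, and without either bIRI library. Cdkn1a lies at 0.00 with 8 libraries, 1.72 without bIRI replicate 1 and -0.76 without bIRI replicate 3, while Bax, Bbc3, Phlda3 and Trp53 stay above 0 in all 4 fits.

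Markers of other cells also differed between these groups. Neutrophil markers, of which 7 of 8 were in the tables, summed to 38.3 to 66.4 CPM in BHBNa_bIRI, 12.4 and 4.99 CPM in bIRI and 0.890 to 1.65 CPM in Sham. Mpo was at 0 in all BHBNa_bIRI libraries, Ly6g in both bIRI libraries and both genes in all Sham libraries. The 9 macrophage and monocyte markers summed to 184.6 to 221.4 CPM in BHBNa_bIRI, 134.9 and 113.3 CPM in bIRI and 112.5 to 186.3 CPM in Sham. They did not move as 1: 4 were higher and 5 lower in bIRI than in Sham, and 6 and 3 in BHBNa_bIRI than in Sham. Against bIRI, 8 were higher and 1 lower in BHBNa_bIRI. The 6 fibroblast markers summed to 671.4 to 835.1 CPM in BHBNa_bIRI, 784.3 and 274.0 CPM in bIRI and 189.5 to 241.1 CPM in Sham. Of these, 5 were higher in both injured groups than in Sham and 1, Dcn, was lower. All 8 T and B cell markers were lower in both injured groups than in Sham. They summed to 1.61 to 3.04 CPM in BHBNa_bIRI, 1.12 and 2.25 CPM in bIRI and 3.86 to 6.54 CPM in Sham. The 6 endothelial markers summed to 322.8 to 518.6 CPM in BHBNa_bIRI, 592.2 and 335.8 CPM in bIRI and 385.9 to 399.4 CPM in Sham. The 5 adipocyte and adrenal markers found summed to 11.5 CPM in BHBNa_bIRI replicate 2 and 2.74 to 5.58 CPM in the other libraries. The 10 kidney markers summed to 22975 to 36103 CPM in BHBNa_bIRI, 26111 and 14057 CPM in bIRI and 34179 to 52965 CPM in Sham. Slc34a1, a phosphate carrier of the proximal tubule, was at 719.9, 691.6 and 552.4 CPM in BHBNa_bIRI, 534.8 and 358.6 CPM in bIRI and 5392, 4424 and 5041 CPM in Sham, so that every injured library was far below Sham. Slc12a1, a salt carrier of the thick ascending limb, was at 25.3, 17.8 and 21.3 CPM in BHBNa_bIRI, 33.1 and 1114 CPM in bIRI replicates 1 and 3 and 503.4, 542 and 271.8 CPM in Sham. It was below Sham in every injured library but bIRI replicate 3, which was above all others. Kap of the proximal tubule was the largest part of each kidney sum. It was at 20501 to 33948 CPM in BHBNa_bIRI, 23331 and 8216 CPM in bIRI and 22687 to 43829 CPM in Sham. Aqp2 of principal cells averaged 552.4, 451.5 and 269.2 CPM in these groups. Of the 10 kidney markers, 4 were higher and 6 lower in bIRI than in Sham, and 2 and 8 in BHBNa_bIRI. The part of these cells in the levels of p53 targets was not tested.

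In pretreated injured kidney set against Sham, 5 of the 10 genes rose and 1 fell. Cdkn1a, Eda2r, Phlda3, Bax and Bbc3 were higher in BHBNa_bIRI by edgeR and Sesn1 was lower, while Mdm2, Trp53inp1, Ccng1 and Zmat3 were not called. Over all genes tested 43.6% were called, 21.3% higher and 22.2% lower. The members' median log2 fold change was 0.51, against 0.04 over all genes. This comparison shares its Sham libraries with bIRI against Sham, and has 3 libraries in each group. Libraries did not overlap in 5 higher and 2 lower members, where 32.6% and 32.2% of all genes did so (64.8% in either direction).

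Cdkn1a averaged 101.9 ± 22.1 CPM in BHBNa_bIRI and 5.06 ± 0.083 CPM in Sham (SD, n = 3 each), a log2 fold change of 4.33 (SE 0.54, edgeR adjusted p 0.000291). Phlda3 averaged 45.7 ± 11.6 CPM in BHBNa_bIRI and 8.70 ± 1.79 CPM in Sham (log2 fold change 2.39, SE 0.40, edgeR adjusted p 0.0013), and Bax 100.3 ± 16.3 and 26.5 ± 7.54 CPM in the same order (1.92, SE 0.39, adjusted p 0.00361). Eda2r averaged 2.22 ± 0.742 CPM in BHBNa_bIRI and 0.356 ± 0.104 CPM in Sham, a log2 fold change of 2.63 (SE 0.43). For these 4 genes and for Sesn1, every BHBNa_bIRI library stood on one side of every Sham library, and all 20 alternatives kept the call. With length and GC trends taken out, Bax was at 1.20 (edgeR adjusted p 0.00592) and Phlda3 at 1.82 (adjusted p 0.00111).

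Bbc3 averaged 5.09 ± 0.682 CPM in BHBNa_bIRI and 2.66 ± 0.346 CPM in Sham (log2 fold change 0.93, SE 0.25, edgeR adjusted p 0.0141), and was at 0.38 (adjusted p 0.234) with the trends taken out. Sesn1 averaged 8.41 ± 2.34 CPM in BHBNa_bIRI and 18.2 ± 2.29 CPM in Sham (log2 fold change -1.11, SE 0.26, edgeR adjusted p 0.00796). It was the one member to fall against Sham. Mdm2 averaged 27.4 ± 3.90 CPM in BHBNa_bIRI and 27.2 ± 2.51 CPM in Sham, with a log2 fold change of 0.01 (95% interval -0.35 to 0.37). Trp53inp1 averaged 12.6 ± 1.11 and 15.3 ± 1.29 CPM in these groups (log2 fold change -0.27, 95% interval -0.63 to 0.08), Ccng1 133.1 ± 8.04 and 166.1 ± 11.3 CPM (-0.32, 95% interval -0.65 to 0.01, adjusted p 0.0426 by DESeq2) and Zmat3 26.2 ± 3.08 and 24.9 ± 3.66 CPM (0.08, 95% interval -0.34 to 0.49). Trp53 averaged 78.2 ± 11.97 CPM in BHBNa_bIRI and 36.0 ± 5.31 CPM in Sham, and rose by 1.12 on the log2 scale (SE 0.20, edgeR adjusted p 0.00184).

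The rank of the genes by level differed between groups. Levels were taken in CPM per kilobase of merged exons, which does not remove the length and GC trends between libraries. Merged exons can also be longer than the transcript, at 3553 and 2080 bases for Cdkn1a, so that these ranks are rough. By this measure Ccng1 was the most abundant member in Sham at a mean of 47.3, followed by Bax at 16.8. Phlda3, Mdm2 and Sesn1 came next at 5.58, 5.36 and 4.57, and their libraries overlapped. Trp53inp1 and Zmat3 stood at 2.36 and 2.17 and overlapped, as did Cdkn1a and Bbc3 at 1.42 and 1.25, and Eda2r was lowest at 0.0604. In bIRI the order was Ccng1 at 51.6, Cdkn1a at 28.7, Bax at 22.4, Phlda3 at 11.9 and Mdm2 at 8.37, with Cdkn1a at 48.4 in replicate 1 and 8.999 in replicate 3. In bIRI replicate 3, Bax at 10.7 was above Cdkn1a and Mdm2 at 8.80 was above Phlda3 at 5.64, so that these neighbours overlapped. In BHBNa_bIRI, Bax led at 63.6, above Ccng1 at 37.9, Phlda3 at 29.3 and Cdkn1a at 28.7, and the libraries of Phlda3 overlapped with those of both Ccng1 and Cdkn1a.

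By the likeness rule given with the methods, the genes whose log2 CPM ran most like Cdkn1a over the 8 libraries were Pea15a, Krt20 and Adam12, each with a Pearson r of 0.996. For Eda2r the nearest was Nap1l1 (0.991), for Phlda3 Lmna (0.997), for Bax Svbp (0.997) and for Mdm2 Csnk1g1 (0.993). They were picked out of 9247 or 9248 genes, and the 8 points share the 3 groups, so that these are descriptions only. For Zmat3 the nearest gene, Ippk, reached 0.907.

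Paralogues are genes that arose from a common ancestor with a member. Of 16 such genes tested, 4 rose and 2 fell in bIRI against Sham, where 18.9% and 16.2% of all genes tested did. The p21 relatives Cdkn1b (p27) and Cdkn1c (p57) were not called there, at log2 fold changes of 0.15 (SE 0.23) and 0.60 (SE 0.39), and whether they differed from Cdkn1a was not tested. Cdkn1c was at 80.7, 92.2 and 133 CPM in BHBNa_bIRI, 40.8 and 17.6 CPM in bIRI and 14.2, 15.9 and 27.7 CPM in Sham, with a log2 fold change of 1.80 against bIRI (SE 0.42, edgeR adjusted p 0.0327). Against Sham it rose by 2.40 on the log2 scale (SE 0.37). Cdkn1b fell by 1.00 on the log2 scale in BHBNa_bIRI against bIRI (SE 0.23, edgeR adjusted p 0.0308). The call of either against bIRI was lost with the length and GC trends taken out, where 0 of the 16 paralogues passed edgeR and 3 had an unadjusted p under 0.05. In that comparison 12 of the 16 were called without bIRI replicate 1, where 42.8% of all genes were, and 0, with 3 at an unadjusted p under 0.05, without bIRI replicate 3, where 4.27% of all genes were.

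Among the other paralogues, Ccng2 and Ccni, of cyclin families, fell in bIRI against Sham by 0.57 (SE 0.18) and 1.03 (SE 0.31) on the log2 scale. Phlda1, a relative of Phlda3, had 14.9 CPM (replicate 1) and 2.68 CPM (replicate 3) in bIRI, against 2.51, 3.33 and 2.33 CPM in Sham, and rose by 1.69 (SE 0.55, edgeR adjusted p 0.039). Without bIRI replicate 1 Phlda1 was at -0.09 (edgeR adjusted p 0.822). Phlda2 was not called at -0.49 (SE 0.42), but was at -1.59 (adjusted p 0.00189) in that fit. Mdm4, the partner and relative of Mdm2, had 21.8 CPM (replicate 1) and 59.2 CPM (replicate 3) in bIRI, against 17.0, 19.5 and 17.7 CPM in Sham, and rose by 1.16 (SE 0.36, edgeR adjusted p 0.0309). Mdm4 was at 0.27 (adjusted p 0.41) without bIRI replicate 3 and 0.55 (adjusted p 0.123) with the trends taken out. Ccni was at -0.90 (adjusted p 0.0504) with the trends taken out, and was called without either bIRI library. Bak1, a pore former like Bax, rose by 1.08 (SE 0.25, edgeR adjusted p 0.00938). Sesn2, at -0.64 (edgeR adjusted p 0.0574), and Sesn3, at 0.75 (edgeR adjusted p 0.0563), were not called, but passed without bIRI replicate 1, where 46.3% of all genes did.

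The list of p53 and its regulators held 14 genes tested, Trp53 included. In bIRI against Sham 2 of them rose and 0 fell, where 18.9% and 16.2% of all genes tested did. Chek1, a kinase of the DNA damage checkpoint, was at 1.84 and 3.36 CPM in bIRI, against 0.248, 0.320 and 0.310 CPM in Sham (log2 fold change 3.14, SE 0.40, edgeR adjusted p 0.000537), and the other was Mdm4. The number of these genes called changed with the bIRI library left out, and so did the number among all genes tested. Either fit leaves 1 bIRI library, so no change particular to these genes is read from it. In BHBNa_bIRI against Sham 2 of the 14 rose and 3 fell, where 21.3% and 22.2% of all genes tested did. Between BHBNa_bIRI and bIRI, 1 of the 14 rose, Trp53 itself, and 3 fell, where 4.88% and 8.65% of all genes tested did. Among those that fell were the kinase gene Atm by 2.18 (SE 0.63) and the acetyltransferase gene Ep300 by 1.45 (SE 0.24) on the log2 scale. With the length and GC trends taken out, edgeR called 0 of the 14, with 5 at an unadjusted p under 0.05. It called 8 without bIRI replicate 1 and 1, Ep300, without bIRI replicate 3, where 42.8% and 4.27% of all genes were called.

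A wider list of 44 tested p53 targets moved in both directions. In bIRI against Sham, 17 rose and 5 fell, with a median log2 fold change of 0.53, the same to 2 decimals as that of the 10 members. Sfn, the gene of the cell cycle protein 14-3-3 sigma, rose by 3.59 (SE 0.36), the receptor tyrosine kinase gene Epha2 by 2.48 (SE 0.30), and the sugar reductase gene Dcxr fell by 2.39 (SE 0.27). Sfn was at 124.6 and 45.1 CPM in bIRI, against 6.39, 7.17 and 7.55 CPM in Sham. In BHBNa_bIRI against bIRI 2 rose and 5 fell: Rrm2b, for a ribonucleotide reductase subunit, fell by 1.30 (SE 0.26), the repair gene Ercc5 fell by 1.28 (SE 0.26), and the phosphatase gene Ptp4a3 rose by 1.11 (SE 0.32). With length and GC trends taken out, edgeR called 0 of these 44 in that comparison, with 11 at an unadjusted p under 0.05. It called 18 without bIRI replicate 1 and 1 without bIRI replicate 3, again beside 42.8% and 4.27% of all genes, and Rrm2b, Ercc5 and Ptp4a3 were called in the first of these fits alone. Of all genes tested with 8 libraries, 18.9% rose and 16.2% fell in bIRI against Sham, with a median log2 fold change of 0.08. In BHBNa_bIRI against bIRI 4.88% rose and 8.65% fell. In BHBNa_bIRI against Sham 16 of the list rose and 9 fell, where 21.3% and 22.2% of all genes tested did. The stress cytokine gene Gdf15 was higher there by 2.56 (SE 0.65).

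**Figure D5:**
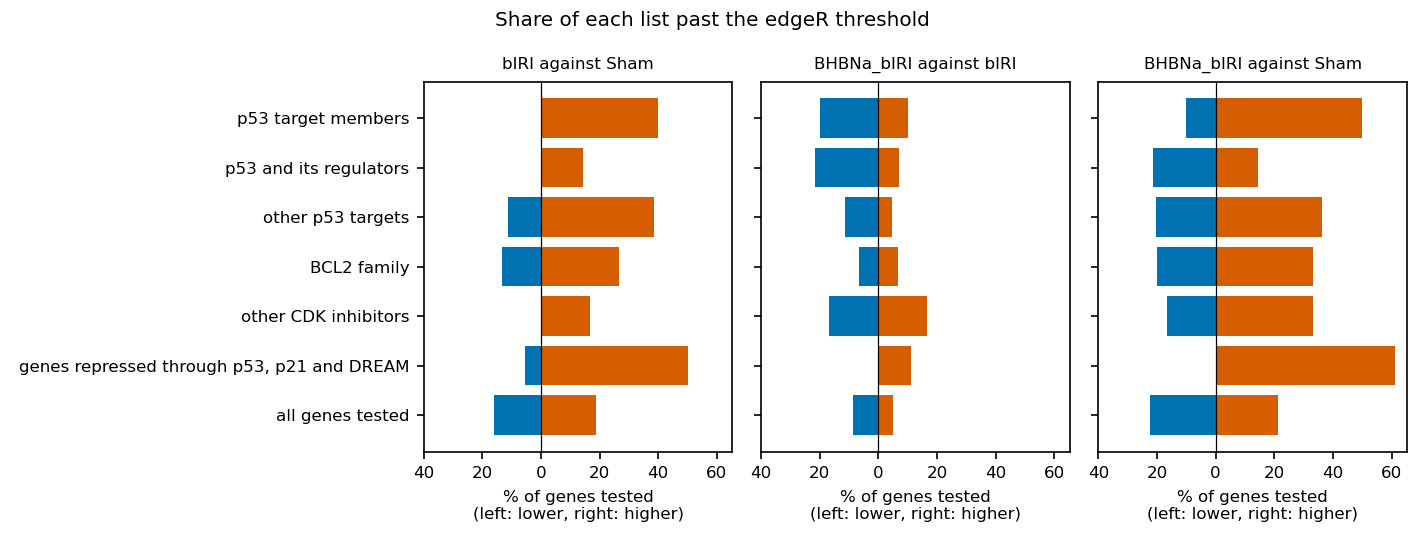
Percent of the genes tested among the members and 5 of the gene lists that were lower (left) or higher (right) by edgeR in the 3 comparisons, with all genes tested at the bottom. The members had 4 of 10 genes higher and 0 lower in bIRI against Sham, and 5 higher and 1 lower in BHBNa_bIRI against Sham.

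Genes of the BCL2 family, which set the threshold for Bax, moved both ways, as did genes at large. In bIRI against Sham 4 of 15 rose and 2 fell, where 18.9% and 16.2% of all genes tested did. Pmaip1, which encodes the BH3-only protein NOXA, was at 8.14 and 12.2 CPM in bIRI, against 3.53, 4.54 and 4.29 CPM in Sham, and rose by 1.30 (SE 0.30). The BH3-only gene Bcl2l11 (BIM) fell by 0.99 (SE 0.23). Between BHBNa_bIRI and bIRI, Bad rose by 0.79 (SE 0.22) and the survival gene Bcl2l2 fell by 0.73 (SE 0.16), and edgeR called 0 of the 15, with 3 at an unadjusted p under 0.05, with the trends taken out. It called 10 without bIRI replicate 1 and 0, with 3 at an unadjusted p under 0.05, without bIRI replicate 3, where 42.8% and 4.27% of all genes passed. In BHBNa_bIRI against Sham 5 of the 15 rose and 3 fell, where 21.3% and 22.2% of all genes tested did. Bak1 was higher there by 1.86 (SE 0.23) and Bok by 1.51 (SE 0.36).

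Genes that p53 is known to repress through p21 and the DREAM complex mostly serve cell division. Of 18 tested, 9 rose and 1 fell in bIRI against Sham (median log2 fold change 1.29), and 11 rose and 0 fell in BHBNa_bIRI against Sham (median 1.68). Of all genes tested, 18.9% rose and 16.2% fell in the first comparison, with a median of 0.08. In the second, 21.3% rose and 22.2% fell, with a median of 0.04. Between BHBNa_bIRI and bIRI 2 of the 18 rose and 0 fell (median 0.05), where 4.88% and 8.65% of all genes tested did (median -0.05). Some of the 18 were scarce in Sham, such as Bub1 at a mean of 0.15 CPM and Mybl2 at 0.35 CPM. Kif23 was at 3.57 and 19.98 CPM in bIRI, against 0.820, 0.502 and 0.439 CPM in Sham, a log2 fold change of 4.32 (SE 0.65, edgeR adjusted p 0.00116), with 5.01 without bIRI replicate 1 and 2.597 without bIRI replicate 3, called in both. Cdk1, the mitotic kinase gene, was at 10.4, 9.19 and 6.004 CPM in BHBNa_bIRI, against 1.09, 0.731 and 1.47 CPM in Sham (2.96, SE 0.35, adjusted p 0.000226). Of the 6 other inhibitors of cyclin-dependent kinases tested, Cdkn2b (p15) alone was called in bIRI against Sham, at 2.35 (SE 0.44, edgeR adjusted p 0.00346). Among all genes tested, 35.1% were called there.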

How the data were processed

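Each library had 1 table of deposited read counts by gene, not normalized. HISAT2, featureCounts of Subread, DESeq2 and mm10 are named per the submitters' processing notes. Their versions and the strand setting are not given in the sources used here, so reads of overlapping antisense genes cannot be told apart. GENCODE M21 (GRCm38) gave symbols for 29220 of 29678 genes, with positions and lengths. The members and gene lists were chosen with earlier results of these data known. Named genes were the members, Trp53, any listed paralogue and, per list and comparison, up to 3 called genes with the largest absolute change and a mean of at least 1 CPM in a compared group. Likeness was the Pearson correlation of log2(CPM + 0.5) over 8 libraries, among genes with a mean of at least 10 CPM.

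Counts of 8 libraries were filtered with filterByExpr, scaled by TMM factors of 0.830 to 1.37 and fitted with edgeR 4.0.16 in R 4.3.3 (quasi-likelihood, robust, 1 mean per group, 5 residual degrees of freedom, common biological coefficient of variation 0.296). Tests were two-sided, with Benjamini-Hochberg adjustment over 17967 genes and a threshold of 0.05. An SE is the absolute log2 fold change divided by the square root of F. DESeq2 1.42.0 was an alternative. So were other scalings, filters, sets of libraries, the replicate block, glmTreat and each library left out. For the gene lists, alternatives were chosen after seeing the data. Length and GC trends were natural splines with 5 degrees of freedom each. No genome sequence was used here, so the motif was searched in RefSeq promoter windows.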

Additional observations from a re-analysis of the deposited data

How the results depend on the processing

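Over the log2 fold changes of the 10 members and Trp53 under 20 alternatives, 548 values kept direction and side of the threshold, 25 passed it newly, 58 no longer passed and 29 changed sign. Leaving out 1 library gave 3 to 7 members called in bIRI against Sham, 0 to 7 in BHBNa_bIRI against bIRI and 5 to 7 in BHBNa_bIRI against Sham, and 4180 to 9064, 0 to 8381 and 5408 to 10308 genes in all. It spread the log2 fold change in bIRI against Sham over -0.72 to 1.03 for Bax, -0.054 to 1.70 for Phlda3 and -0.075 to 0.50 for Trp53. Between BHBNa_bIRI and bIRI the ranges were -0.76 to 1.72 for Cdkn1a, -0.46 to 0.047 for Zmat3 and -0.28 to 0.50 for Eda2r, and in BHBNa_bIRI against Sham -0.097 to 0.11 for Mdm2 and -0.014 to 0.20 for Zmat3.

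For BHBNa_bIRI against bIRI, DESeq2 called 6 members and 4507 genes, and edgeR on all 9 deposited libraries 6 and 5847. The 9 libraries include bIRI replicate 2, the rounded-down mean of the other bIRI libraries, so that fit understates the spread in bIRI. It is among the 20 alternatives. With only the compared groups edgeR called 0 members, 5 having an unadjusted p under 0.05, and 1 gene. With length and GC trends taken out it called 0 members and 6 genes. Testing for a fold over 1.5 (glmTreat) gave 0 members and 0 genes there, with 4 members and 3057 genes at an unadjusted p under 0.05, where DESeq2 had 6 members and 6605 genes. The same test gave 2 members and 3371 genes in bIRI against Sham and 4525 genes in BHBNa_bIRI against Sham.

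Whether replicate numbers pair the libraries could not be settled. Deviations from group means correlated at -0.40 to 0.21 for same-numbered libraries and at -0.34 to 0.40 for others. With 2 libraries in bIRI, their deviations mirror each other. A correlation with bIRI replicate 1 is therefore that with bIRI replicate 3 with its sign reversed. With a replicate block, edgeR called 0 members and 0 genes in BHBNa_bIRI against bIRI, with 5 members and 5270 genes at an unadjusted p under 0.05, and Cdkn1a was at 0.34. With the block and the trends taken out it called 0 members and 0 genes, with 2 and 3727 at an unadjusted p under 0.05. There Cdkn1a was at 0.098, Ccng1 at 0.080 and Zmat3 at 0.49, and in bIRI against Sham Ccng1 was at -0.32 and Zmat3 at -0.075.

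Without the block, the trends taken out put Ccng1 at -0.28 in bIRI against Sham, and Ccng1 at 0.039 and Zmat3 at 0.33 in BHBNa_bIRI against bIRI. Cdkn1a, at 0.00 in that comparison, was at 0.012 with DESeq2 and with RLE factors, 0.035 with upper-quartile factors, 0.0089 with TMM lacking mitochondrial and the 20 most abundant genes, 0.0055 with a filter at 1 CPM and 0.022 with 9 libraries. Mdm2 was at -0.011 in BHBNa_bIRI against Sham with no filter. The causes were not tested. Depth limits Eda2r most, with 10 to 20 counts in Sham.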
